A study of Mus musculus with 2 samples.

Results

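Wnt7a, Wnt7b, Lef1, Tcf7l1, Tcf7l2, Axin2, Sfrp1, Fzd1 and Fzd3 are 9 genes of the canonical Wnt pathway, taken by symbol from the 32285 genes counted in the mouse pallium at postnatal day 3 (P3). Their levels were described across groups of cells set by marker genes outside the list. The 2 libraries, called replicates 1 and 2, come from 1 group of wild-type mice whose cells were birthdated with EdU at embryonic day 12 (E12). EdU stands in for thymidine when a cell copies its DNA and is diluted by later divisions. Pallial tissue was pooled, dissociated, and sorted for cells that excluded propidium iodide and lay among the brightest 10% for EdU, so the cells seen are those that kept the label. Droplet libraries of the 10x Genomics 3' kind were then made, which count transcripts near their 3' ends by unique molecular identifiers (UMIs). Whether each library had animals of its own is not stated in the labels, and the p-values therefore reflect the spread of 2 libraries that may differ for technical reasons alone.

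In canonical Wnt signalling a secreted Wnt ligand binds a Frizzled receptor and an Lrp co-receptor, and beta-catenin is then spared from a destruction complex built on Axin proteins. Beta-catenin joins the TCF/LEF factors on DNA and turns genes on that these factors otherwise help to keep silent, and Axin2 is itself a target that dampens the signal. In the developing brain the pathway is known for its part in cortical progenitor growth, in the growth of blood vessels, and in the timing of oligodendrocyte maturation, where Tcf7l2 marks cells that are just leaving the precursor state.

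After barcodes with under 500 genes or over 10% mitochondrial UMIs were removed, 11228 cells remained in replicate 1 and 10965 in replicate 2, with medians of 7542.5 and 8523 UMIs per cell. A cell joined a group if it had at least 2 UMIs of that group's marker and at most 1 of each other group's. The groups were Pdgfra cells (3685 and 3758 cells in replicates 1 and 2), the marker of oligodendrocyte precursors, Enpp6 cells (10 and 29), the marker of newly formed oligodendrocytes, Aqp4 cells (1501 and 1487), the marker of astroglia, Neurod cells (1020 and 1019), set by Neurod2 plus Neurod6 of the glutamatergic lineage, and Gad cells (980 and 1016), set by Gad1 plus Gad2 of the GABAergic lineage. Together they held 64.1% of the cells of replicate 1 and 66.7% of those of replicate 2. All markers of a group's own list were detected in it, but each list includes the genes that set the group. Detection alone does not tell the groups apart, since all 6 oligodendrocyte markers were also detected in Pdgfra cells. Levels are given as CPM (counts per 1e+06, the share of a gene in all UMIs of its library and group). The 6 oligodendrocyte markers summed to 11746.1 and 14224.6 CPM in Enpp6 cells against 517.3 and 518.4 CPM in Pdgfra cells. Enpp6 is 1 of the 6 and chose the cells, so part of this difference was fixed in advance. The 5 precursor markers still summed to 1801 and 1569 CPM in the Enpp6 cells. There, 5 Cajal-Retzius markers summed to 441.2 and 461.2 CPM (31.15 and 58.36 CPM in Pdgfra cells). The 6 GABAergic markers summed to 189.9 and 114.2 CPM (36.03 and 37.19 CPM in Pdgfra cells). The part of these lists in the values of the Enpp6 cells was not tested. Between the libraries, 40 cell barcodes were shared, or 0.356% and 0.365% of their cells.

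All 9 genes are protein-coding in the GENCODE M21 annotation of GRCm38. Wnt7a lies on chr6:91363981-91411363 (minus strand), Wnt7b on chr15:85535437-85582473 (minus), Lef1 on chr3:131110471-131224356 (plus), Tcf7l1 on chr6:72626378-72789254 (minus) and Tcf7l2 on chr19:55741820-55933654 (plus). Axin2 lies on chr11:108920349-108950783 (plus), Sfrp1 on chr8:23411502-23449632 (plus), Fzd1 on chr5:4753839-4758035 (minus) and Fzd3 on chr14:65192449-65262463 (minus). Exons of 4 of them overlap a gene on the other strand, and the strand setting of the counting is not given, so reads of the pairs cannot be told apart. The partners were counted far less often over the 5 groups: AU022754 had 292 UMIs beside 3824 of Wnt7b, Lef1os1 had 42 beside 588 of Lef1, Gm15401 had 8 beside 1958 of Tcf7l1, and Gm11670 had 0 beside 3194 of Axin2.

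Because the TCF/LEF factors read a short DNA word, promoter windows of the members were searched for CTTTGA on both strands (TCAAAG on the other strand). RefSeq windows of 300 bases (GRCm38.p6) were at hand for 6 of the 9 genes, 10 windows in all. A match was found for 2 genes, Lef1 and Fzd1, in 1 window each, and the other windows of Lef1 held 0. Of all 32851 such windows, 5257 (16%) held one, which is a share of windows and not of genes. The 3 windows shown belong to Lef1, Fzd1 and Axin2, which were higher in Aqp4 than in Pdgfra cells, as were all 9 members. Lef1 had 2 matches at chr3:131156044-131156343 (plus strand, the start farthest downstream of its 4 windows). Fzd1 had 1 match at chr5:4758167-4758466 (minus), and Axin2, the feedback target, had 0 matches at chr11:108920099-108920398 (plus). The windows read 5′ to 3′ along the gene's strand, and capitals mark the matches.
Lef1 promoter: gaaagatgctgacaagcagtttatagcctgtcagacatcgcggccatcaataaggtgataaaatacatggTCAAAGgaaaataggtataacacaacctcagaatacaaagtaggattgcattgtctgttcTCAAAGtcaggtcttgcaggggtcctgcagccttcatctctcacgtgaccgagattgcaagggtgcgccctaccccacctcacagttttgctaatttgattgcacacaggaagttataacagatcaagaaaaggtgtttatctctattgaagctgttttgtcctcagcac
Fzd1 promoter: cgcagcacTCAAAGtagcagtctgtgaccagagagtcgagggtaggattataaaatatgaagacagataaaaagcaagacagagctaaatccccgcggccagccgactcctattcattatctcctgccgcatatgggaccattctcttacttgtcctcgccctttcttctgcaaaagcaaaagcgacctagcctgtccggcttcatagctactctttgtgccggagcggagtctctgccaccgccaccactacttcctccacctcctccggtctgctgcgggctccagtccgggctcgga
Axin2 promoter: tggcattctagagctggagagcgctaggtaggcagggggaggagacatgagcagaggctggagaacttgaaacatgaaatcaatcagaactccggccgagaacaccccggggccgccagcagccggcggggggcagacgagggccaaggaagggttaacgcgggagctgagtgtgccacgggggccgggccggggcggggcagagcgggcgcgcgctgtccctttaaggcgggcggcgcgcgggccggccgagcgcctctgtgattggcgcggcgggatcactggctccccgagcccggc
A match is a description of the letters only, and counts near the 3' end do not show which start was used.

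Both ligands differed between the neuronal groups. Wnt7b was counted at 65.9 CPM in replicate 1 and 61.4 CPM in replicate 2 of the Neurod cells, and at 4.36 and 6.57 CPM in the Gad cells. Wnt7a went the other way, at 4.09 and 1.71 CPM in Neurod cells and 14.9 and 18.0 CPM in Gad cells. For both ligands the libraries of the neuronal groups did not overlap. In the edgeR fit over all genes, Wnt7b was higher in Neurod than in Gad cells by a log2 fold change of 3.40 ± 0.13 (SE; edgeR adjusted p = 5.81e-16), and Wnt7a was lower, with a log2 fold change of -2.66 ± 0.24 (edgeR adjusted p = 2.86e-09). The size of the Wnt7a difference depended on the library, since it was -3.41 without replicate 1 and -1.99 without replicate 2.

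Across all 5 groups, Wnt7b was highest in Neurod cells (63.7 ± 3.20 CPM, SD, n = 2), followed by Aqp4 cells (38.7 ± 0.276), Pdgfra cells (24.9 ± 0.622), Enpp6 cells (11.8 ± 0.587) and Gad cells (5.47 ± 1.57), and no neighbours in that order overlapped. Wnt7a was highest in Aqp4 cells (23.5 ± 1.80 CPM), then in Gad cells (16.4 ± 2.18) and Pdgfra cells (12.5 ± 0.431). Its levels in Neurod cells (2.90 ± 1.68 CPM) and Enpp6 cells (1.14 ± 1.61) overlapped. Pdgfra and Aqp4 cells had both ligands, while each neuronal group had mostly one of them.

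A Wnt7b UMI was found more often in Neurod than in Gad cells. With each cell thinned to 2000 UMIs, 11.8% ± 0.212 (SD, n = 2) of Neurod cells and 1.07% ± 0.395 of Gad cells had a Wnt7b UMI, against 28.7% and 3.35% without thinning. In the C1q cells, microglia set by C1qa plus C1qb that served as a reference for RNA from outside the cell, the thinned share was 0.694% ± 0.982 (3.89% without thinning). The thinned Wnt7a share was 3.25% ± 0.110 in Gad cells and 0.585% ± 0.10 in Neurod cells (11.1% and 1.72% without thinning). Of the thinned C1q cells, 0 of 266 had one. Without thinning, 0.746% of C1q cells in replicate 1 and 4.11% in replicate 2 had a Wnt7a UMI. Their Wnt7a levels, 0.630 and 3.20 CPM, overlapped those of Neurod cells. The C1q cells were deeper, with medians of 11552 and 13915 UMIs against 6140.5 and 6986 in Neurod cells and 6396 and 6939.5 in Gad cells. The Gad share of Wnt7b was thus close to the reference share.

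**Figure D1:**
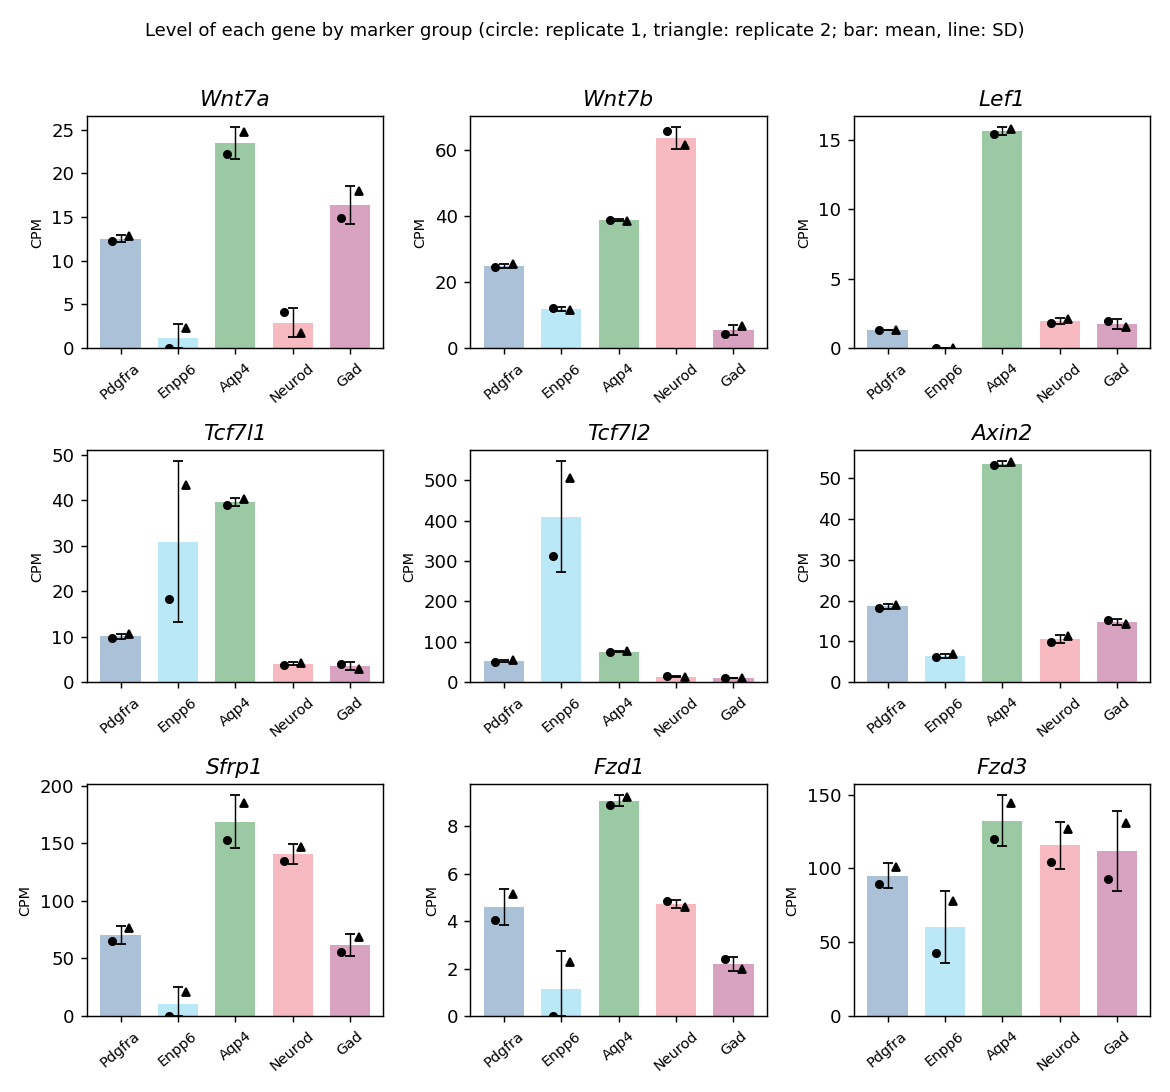
Level of each of the 9 genes (CPM, vertical axes from 0, each with its own scale) in the 5 marker groups. Bars are means of 2 libraries, lines are SDs, circles are replicate 1 and triangles replicate 2. Wnt7b stands highest in Neurod cells, Tcf7l2 in Enpp6 cells, and Lef1 and Axin2 in Aqp4 cells.

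Within the Neurod cells, Wnt7b also varied with other neuronal markers. Cells that also had at least 2 UMIs of Tbr1, a factor of early-born deep-layer neurons, had 87.6 and 76.0 CPM of Wnt7b, and those with Cux2, a marker of upper-layer neurons, had 67.0 and 105 CPM. Neurod cells with Eomes, the marker of intermediate progenitors, had 45.9 and 35.6 CPM, and those with Fezf2, a factor of subcerebral projection neurons, had 30.9 and 35.6 CPM from 12 UMIs in all. The Tbr1 values lay above those of the Eomes cells in both libraries. Dividing Neurod cells, with at least 2 UMIs of Mki67 plus Top2a (45 and 40 cells), had 17.1 and 15.3 CPM of Wnt7b against 70.5 and 64.2 CPM in those with 0. The 6 glutamatergic markers were also lower in the dividing cells, summing to 596 and 557 CPM against 1431 and 1523 CPM, and the 5 precursor markers were higher, at 744 and 416 CPM against 253 and 170 CPM. In replicate 2 the dividing cells also held 1324 CPM of 6 microglial, 648 CPM of 5 endothelial and 401 CPM of 5 mural markers, against 121, 0 and 3.11 CPM in replicate 1. The part of these lists in the Wnt7b values was not tested. The cells of these subsets overlap, and no test was run on them.

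Outside the 5 groups, cells with Trp73, the marker of Cajal-Retzius neurons (40 and 33 cells), had 155 CPM of Wnt7b in replicate 1 and 216 CPM in replicate 2, above every main group. Their exact Poisson 95% intervals ran from 126 to 190 CPM and from 180 to 257 CPM, and such intervals cover counting error only. Wnt7a had 2 and 1 UMIs there.

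Of the receptors Fzd1 and Fzd3, Fzd3 was the less selective. Fzd3, a Frizzled known for its role in axon guidance and planar polarity, had 120 and 144 CPM in Aqp4 cells, 104 and 127 CPM in Neurod cells, 92.5 and 131 CPM in Gad cells and 89.1 and 101 CPM in Pdgfra cells. Over both libraries these 4 groups overlapped with their neighbours in the order, though Aqp4 cells were the highest of them within each library. Only Enpp6 cells lay below all 4, at 42.9 and 77.6 CPM, and their difference from Pdgfra cells did not pass (edgeR adjusted p = 0.19). Fzd3 was also higher in replicate 2 than in replicate 1 in 5 of 5 groups, by 1.14 to 1.42 times with Enpp6 cells left out. Sfrp1 shared that pattern, by 1.09 to 1.24 times.

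Fzd1, a Frizzled of the canonical branch, was counted far less often. It had 8.91 and 9.23 CPM in Aqp4 cells, 4.85 and 4.61 CPM in Neurod cells, 4.04 and 5.13 CPM in Pdgfra cells and 2.39 and 1.98 CPM in Gad cells. Aqp4 cells stood above the other 4 groups in both libraries, and Neurod and Pdgfra cells overlapped. With cells thinned to 2000 UMIs, 2.15% ± 0.0410 of Aqp4 cells had an Fzd1 UMI and 0 of 266 C1q cells did (7.60% and 1.12% without thinning).

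Sfrp1, a secreted Frizzled-like protein that binds Wnt ligands, was highest among the 5 groups in Aqp4 cells, at 153 and 185 CPM. Neurod cells followed at 135 and 147 CPM, then Pdgfra cells at 64.9 and 76.2 CPM and Gad cells at 55.4 and 68.8 CPM, which overlapped. Enpp6 cells had 0 UMIs in replicate 1, where 3 counts would have been 18.4 CPM, and 20.6 CPM in replicate 2. Among the Aqp4 cells, those with Gfap had 216 and 235 CPM and those with Egfr, a receptor of immature astroglia, had 128 and 157 CPM. Among the Gad cells, those with Lhx6 had 157 and 275 CPM, from 11 and 42 UMIs. Gad cells with Sp8, Adarb2, Tshz1 or Foxp1 had 43.25 to 94.69 CPM. These subsets can share cells and were not tested. Outside the 5 groups, Sfrp1 was at 189 and 203 CPM in the cells set by Eomes, from 24 and 36 UMIs. In those set by Rgs5 plus Kcnj8 it was at 286 and 462 CPM, from 47 and 77 UMIs. The Rgs5 plus Kcnj8 cells also held 2423 and 3057 CPM of 7 astroglial markers, whose part in the Sfrp1 values was not tested.

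The TCF/LEF factors and Axin2 split by glial type. Lef1, the factor of the family that mainly activates, had 15.4 and 15.8 CPM in Aqp4 cells. It had 1.33 and 1.30 CPM in Pdgfra cells, 1.82 and 2.11 CPM in Neurod cells, 1.97 and 1.49 CPM in Gad cells, and 0 UMIs in the 39 Enpp6 cells. Aqp4 cells stood far above all other main groups in both libraries. The thinned share was 3.21% ± 0.137 of Aqp4 cells and 0.299% ± 0.0542 of Pdgfra cells (11.5% and 1.10% without thinning). Of the thinned C1q cells, 0 of 266 had a Lef1 UMI. Without thinning, 0.746% of C1q cells in replicate 1 and 0% in replicate 2 had one.

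Axin2, the feedback inhibitor that serves as a readout of the pathway, was also highest in Aqp4 cells among the 5 groups. It had 53.2 and 54.0 CPM in Aqp4 cells, 18.2 and 19.0 CPM in Pdgfra cells, 15.3 and 14.3 CPM in Gad cells, 9.85 and 11.3 CPM in Neurod cells and 6.13 and 6.85 CPM in Enpp6 cells, the last from 4 UMIs. No neighbours in that order overlapped. Thinned, 10.9% ± 0.304 of Aqp4 cells and 3.52% ± 0.318 of Pdgfra cells had an Axin2 UMI (35.4% and 14.2% without thinning), against 0.410% ± 0.580 of C1q cells (1.80%). Lef1 and Axin2 were found together in 8 of 1423 thinned Aqp4 cells of replicate 1 and 9 of 1415 of replicate 2, which is 0.562% and 0.636%. The products of the single shares were 0.367% and 0.332%. Many pairs of members were counted, some above and some below their product, and no test was run on them.

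Tcf7l1, a member that mainly represses, had 39.0 and 40.2 CPM in Aqp4 cells and 9.63 and 10.5 CPM in Pdgfra cells. Neurod and Gad cells lay lower, at 3.79 and 4.22 CPM and at 4.08 and 2.98 CPM, and overlapped. In Enpp6 cells it had 18.4 and 43.4 CPM from 22 UMIs, which overlapped with Aqp4 cells.

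Tcf7l2 was the member that set the Enpp6 cells apart. It had 313 and 507 CPM there, against 74.0 and 76.5 CPM in Aqp4 cells, 50.3 and 54.3 CPM in Pdgfra cells, 14.2 and 12.8 CPM in Neurod cells and 10.1 and 10.9 CPM in Gad cells. No neighbours in this order overlapped. All 39 Enpp6 cells had a Tcf7l2 UMI, and 59.5% ± 13.4 did after thinning to 2000 UMIs, against 10.7% ± 0.474 of Pdgfra cells (33.1% without thinning). Cells with at least 2 UMIs of both Pdgfra and Enpp6 (7 and 5 cells) had 525 and 355 CPM. C1q cells had a Tcf7l2 UMI in 5.17% ± 1.52 of thinned cells and in 28.5% of unthinned ones, above the 2.76% and 1.67% of thinned Neurod and Gad cells.

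**Figure D2:**
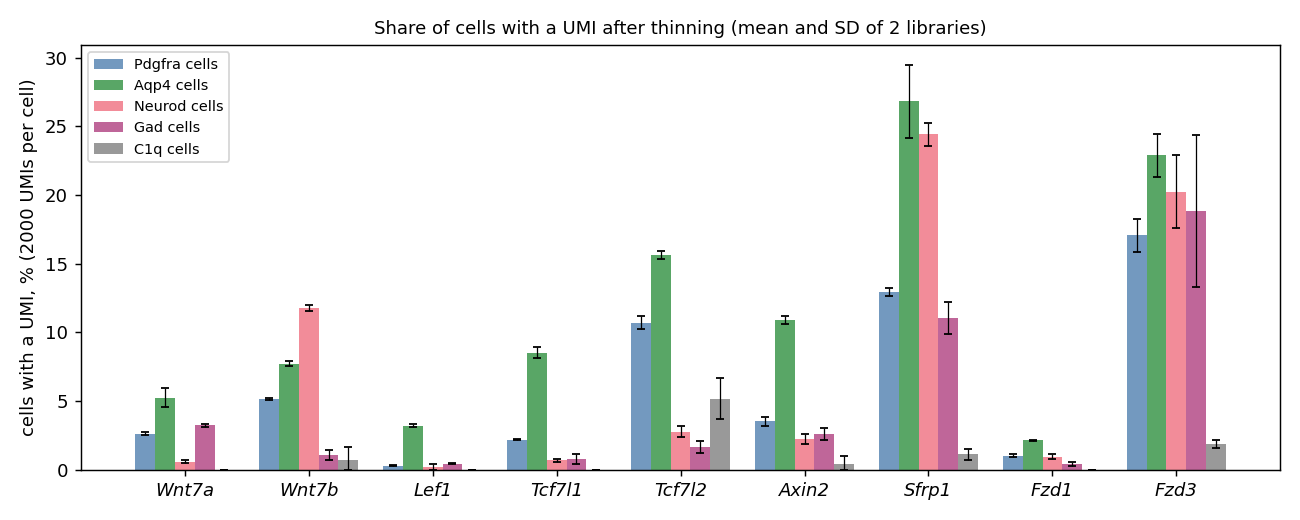
Share of cells with at least 1 UMI of each gene after each cell was thinned to 2000 UMIs (percent; bars are means of 2 libraries, lines SDs) in Pdgfra, Aqp4, Neurod, Gad and C1q cells. Wnt7b is found most often in Neurod cells (11.8%), and Lef1 (3.21%), Axin2 (10.9%) and Tcf7l1 (8.53%) in Aqp4 cells, while the C1q reference stays lowest except for Tcf7l2.

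Outside the 5 groups, Lef1 was higher in Cldn5 cells and in Rgs5 plus Kcnj8 cells than in any of the 5. Cells with Cldn5, the endothelial marker (14 and 23 cells), had 124 CPM of Lef1 in replicate 1 and 160 CPM in replicate 2, with Poisson 95% intervals of 69.6 to 205 and 115 to 218 CPM. Cells with Rgs5 plus Kcnj8 (20 in each library) had 54.8 and 36.0 CPM. Axin2 was 24.9 and 44.1 CPM in the Cldn5 cells and 60.9 and 36.0 CPM in the Rgs5 plus Kcnj8 cells. The Rgs5 plus Kcnj8 cells are not called a cell type here, since the 7 astroglial markers summed to 2423 and 3057 CPM in them, the 5 Cajal-Retzius markers to 1047 and 1426 CPM, and the 5 mural markers, which include both that chose them, to 2477 and 4927 CPM. The part of these lists in the Lef1 and Axin2 values was not tested. The 5 endothelial markers summed to 8260 and 8379 CPM in the Cldn5 cells, and 3 erythroid markers summed to 41796.1 CPM in replicate 1 and 444.8 CPM in replicate 2, whose part in the values was not tested.

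**Figure D3:**
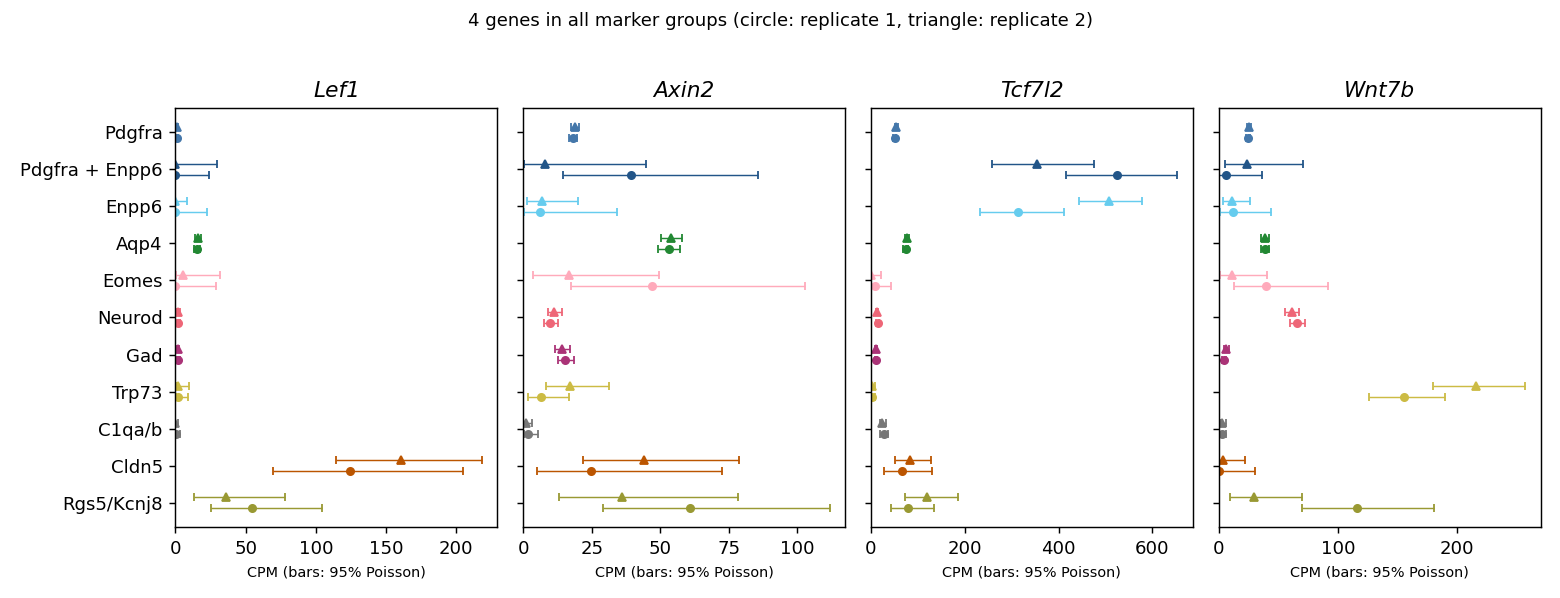
Level of Lef1, Axin2, Tcf7l2 and Wnt7b (CPM, linear axes) in all 11 marker groups, with circles for replicate 1, triangles for replicate 2 and exact Poisson 95% intervals as bars. Lef1 is highest in Cldn5 cells (124 and 160 CPM), Wnt7b in Trp73 cells (155 and 216 CPM), and Tcf7l2 in cells with Enpp6.

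Against the Pdgfra cells, all 9 members were higher in the Aqp4 cells. The largest differences were those of Lef1 (log2 fold change 3.77 ± 0.19, SE; edgeR adjusted p = 5.28e-14), Tcf7l1 (2.18 ± 0.10; 9.76e-15) and Axin2 (1.73 ± 0.07; 1.28e-16). Sfrp1, Fzd1, Wnt7a, Wnt7b, Tcf7l2 and Fzd3 followed, with log2 fold changes from 1.46 down to 0.68. The count of 9 of 9 stands against 35.8% of the 14330 genes tested that were higher in Aqp4 cells and 68.2% called in either direction. Because the members were chosen with earlier results of these data known, this count and those below describe the members and test no enrichment. The median of the members was 1.19 and that of all genes 0.02 on the log2 scale. Each of the 9 differences had the same direction in each library.

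Of 87 other pathway genes in the list, 68 could be tested, of which 36 were higher and 20 lower in Aqp4 cells, with a median of 0.23. Receptors and co-receptors were higher in 11 and lower in 3 of 17, and secreted inhibitors higher in 7 and lower in 2 of 9. Lgr6, an R-spondin receptor, was higher by 4.54 ± 0.24 (edgeR adjusted p = 1.42e-13), from 0.617 and 0.729 CPM in Pdgfra cells to 12.6 and 14.9 CPM in Aqp4 cells. The secreted inhibitors Sfrp5 (5.09 ± 0.49) and Notum (4.27 ± 0.36), an enzyme that removes the lipid of Wnt ligands, were also higher, and exons of Notum overlap other genes. Lgr5, the relative of Lgr6, had 0 UMIs in Aqp4 cells and was at least 15.8-fold lower there, from 3 counts over the group. The genes that give feedback on the pathway were divided, with 4 higher and 3 lower of 7.

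Between Pdgfra and Enpp6 cells, 2 members were higher and 1 was lower in the Enpp6 cells. Tcf7l2 was higher by a log2 fold change of 3.103 ± 0.14 (edgeR adjusted p = 6.69e-14) and Tcf7l1 by 1.85 ± 0.37 (edgeR adjusted p = 0.00082), while Sfrp1 was lower, at -2.28 ± 0.39 (edgeR adjusted p = 0.000183). Among all genes, 7.63% were called higher, 9.26% lower and 16.9% in either direction. Wnt7b (-1.09 ± 0.47, edgeR adjusted p = 0.125), Axin2 (-1.48 ± 0.55, edgeR adjusted p = 0.071) and Fzd3 (-0.53 ± 0.26, edgeR adjusted p = 0.19) did not pass. Wnt7a and Fzd1 had 1 UMI each in the Enpp6 cells, which makes them 7.54-fold lower (95% counting interval 1.35 to 298) and 2.78-fold lower (0.495 to 110), and Lef1 had 0 UMIs, too few cells for a fold.

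The comparison rests on 39 cells. On simulated counts its test recovered 13% of 2-fold and 56% of 4-fold changes, so members that did not pass may still differ. The size of the differences depended on the library. Without replicate 2, the log2 fold change of Tcf7l2 was 2.50 and that of Tcf7l1 was 0.79, and Sfrp1 had 0 UMIs in the Enpp6 cells of replicate 1. The median of all genes was -0.21 with TMM scaling, and that of the members -1.48, or -1.09 with genes at 0 placed at their bound. Other pathway genes were higher in 3 and lower in 11 of 68, the median being -0.67, or -0.16 with 16 genes at their bound. Rnf43, a ubiquitin ligase that clears Frizzled receptors, had 0 UMIs and was at least 2.43-fold lower than in Pdgfra cells. Nkd2 and Kremen1, which also restrain the pathway, had 0 UMIs and were at least 1.65-fold and 1.59-fold lower. Sfrp2 had 1 UMI and was 14.9-fold lower (2.66 to 587), and its exons overlap another gene.

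Between the neuronal groups, 3 members were higher in Neurod and 2 in Gad cells. Besides the ligands, Sfrp1 was higher in Neurod cells by 1.06 ± 0.07 (edgeR adjusted p = 3.9e-12) and Fzd1 by 1.00 ± 0.30 (edgeR adjusted p = 0.00795), and Axin2 was lower, at -0.59 ± 0.14 (edgeR adjusted p = 0.00149). Lef1 (0.09 ± 0.38), Tcf7l1 (0.08 ± 0.28), Tcf7l2 (0.24 ± 0.18) and Fzd3 (-0.07 ± 0.07) did not pass, with edgeR adjusted p from 0.282 to 0.872. Of all genes, 26.6% were called higher in Neurod cells, 23.7% lower and 50.2% in either direction. The members' median was 0.09 and that of all genes 0.04.

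Other pathway genes were higher in 14 and lower in 14 of 68. Wls, the carrier that brings Wnt ligands to the cell surface, was lower in Neurod cells at -3.53 ± 0.17 (edgeR adjusted p = 2.38e-14), with 3.33 and 3.43 CPM against 35.0 and 37.0 CPM in Gad cells. Wnt5b, a ligand of the non-canonical branch, was higher by 2.86 ± 0.30 (edgeR adjusted p = 4.79e-08). Adgra2, the Gpr124 co-receptor that Wnt7 ligands act through in brain vessels, had 0 UMIs in Gad cells and 7 in Neurod cells. It was at least 2.50-fold higher in Neurod cells, but at only 0.493 CPM, against 33.1 and 40.1 CPM in Cldn5 cells. Wnt10a had 1 UMI in Neurod cells and 9 in Gad cells, and was 8.41-fold lower in Neurod cells (1.17 to 369). The 4 dividing-cell markers summed to 1276 and 1474 CPM in Gad cells and 180.6 and 174.2 CPM in Neurod cells. With dividing cells removed all 5 called members stayed past the threshold.

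Lef1 in Neurod cells rested on few counts. Dividing Neurod cells had 7.76 and 18.4 CPM of Lef1, from 5 and 12 UMIs, and non-dividing ones had 0.940 and 0.657 CPM, from 5 and 4 UMIs. As a mean over the dividing cells the levels were 6.91 and 6.34 CPM. The values of these subsets did not overlap, and no test was run on them. The 5 endothelial markers, whose own cells had high Lef1, summed to 0 CPM in the dividing Neurod cells of replicate 1 and to 648 CPM in those of replicate 2, against 0.752 and 1.31 CPM in the non-dividing ones. Mural and microglial markers in the dividing cells are given with Wnt7b above, and the part of all 3 lists in the Lef1 counts was not tested.

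Against the astroglia, the neuronal groups had less of nearly all members. In Neurod cells 8 of 9 were lower than in Aqp4 cells, against 36.6% of all genes, and Wnt7b alone of the 9 was higher, by 0.63 ± 0.08 (edgeR adjusted p = 2.14e-07), against 36.1%. The largest differences were those of Tcf7l1 (-3.39 ± 0.16), Wnt7a (-3.14 ± 0.21), Lef1 (-3.06 ± 0.24), Tcf7l2 (-2.57 ± 0.10) and Axin2 (-2.42 ± 0.10), and Fzd1 (-1.03 ± 0.21), Sfrp1 (-0.35 ± 0.05) and Fzd3 (-0.28 ± 0.06) were smaller. Their median was -2.42, while that of all genes was -0.00299, and 72.7% of genes were called in either direction. The Wnt7a value was -3.84 without replicate 1 and -2.53 without replicate 2, and the Fzd3 call was lost without the library as a block (edgeR adjusted p = 0.0915).

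In Gad cells all 9 were lower than in Aqp4 cells, against 37.6% of all genes (36.5% higher, 74.1% in either direction). Tcf7l1 (-3.47 ± 0.17), Lef1 (-3.15 ± 0.24), Tcf7l2 (-2.81 ± 0.11) and Wnt7b (-2.78 ± 0.13) differed most, and Wnt7a (-0.48 ± 0.14, edgeR adjusted p = 0.00486) and Fzd3 (-0.21 ± 0.06, edgeR adjusted p = 0.00302) least. Wnt7a did not pass with DESeq2 (adjusted p = 0.0768) or with dividing cells removed (edgeR adjusted p = 0.0607), and Fzd3 did not without the library block (edgeR adjusted p = 0.195). These comparisons share the Aqp4 sums, and the members' median here was -2.03, that of all genes -0.01.

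Other pathway genes were counted by role in these comparisons, against 36.1% of all genes higher and 36.6% lower in Neurod cells and 36.5% and 37.6% in Gad cells. Receptors and co-receptors were lower in 12 and higher in 0 of 17 in Neurod cells, and lower in 12 and higher in 1 of 17 in Gad cells. Cytoplasmic transducers, which carry the signal inside the cell, were higher in 12 and lower in 1 of 14 in Neurod cells and higher in 11 and lower in 1 in Gad cells. Feedback genes were lower in 4 and 6 of 7 and higher in 0. Secreted inhibitors were lower in 7 and 6 of 9 and higher in 1 in each comparison. Other ligands were higher in 2 and lower in 2 of 7 in both, and TCF/LEF factors and their co-factors higher in 6 and 7 and lower in 4 of 12. Over all 68 other genes, 22 were higher and 31 lower in Neurod cells (median -0.23) and 23 higher and 32 lower in Gad cells (median -0.30).

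Single genes showed how far these groups lie apart. Fzd10 was lower in Neurod than in Aqp4 cells at -4.73 ± 0.52 (edgeR adjusted p = 4.31e-08) and Lgr6 at -4.22 ± 0.33 (edgeR adjusted p = 1.74e-10). Sfrp5 had 2 UMIs in Neurod cells and was 26.0-fold lower (7.01 to 217), and the inhibitor Dkk2 had 3 UMIs and was 12.3-fold lower (4.05 to 61.1). In Gad cells Sfrp5 had 1 UMI and was 55.6-fold lower (9.76 to 2215.5), and Rspo1, an R-spondin that strengthens Wnt signals, had 2 UMIs and was 26.7-fold lower (7.20 to 224). Lgr5, with 10 UMIs in Gad and 0 in Aqp4 cells, was at least 6.24-fold higher in Gad cells. Adgra2, with 0 UMIs in Gad and 12 in Aqp4 cells, was at least 2.14-fold lower in Gad cells, and its exons overlap another gene.

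**Figure D4:**
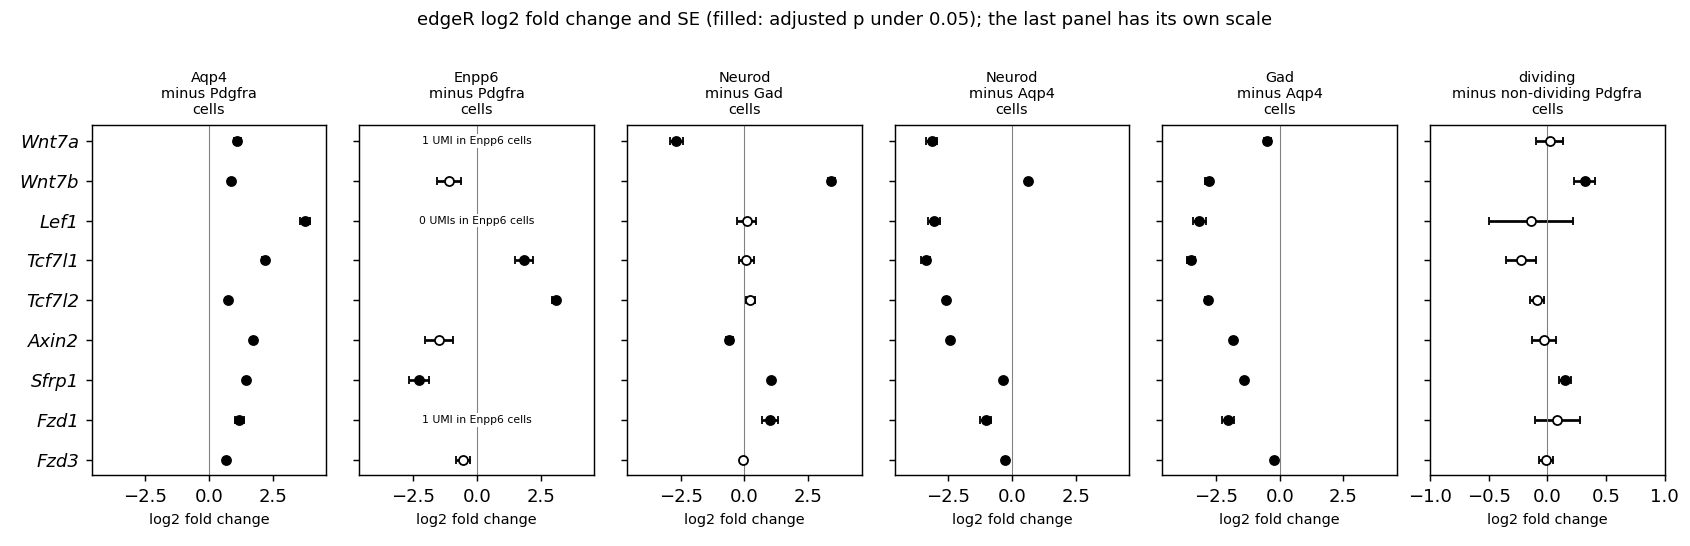
log2 fold change of each gene with its SE in the 6 comparisons (edgeR; filled points have an adjusted p under 0.05; the last panel has its own scale). Genes with 0 or 1 UMI in Enpp6 cells carry their count in place of a point. All 9 points lie right of 0 for Aqp4 minus Pdgfra cells, and in the dividing comparison the points lie close to 0.

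The members differed little between dividing and non-dividing Pdgfra cells. Dividing cells (683 and 784, with at least 2 UMIs of Mki67 plus Top2a) had 27.7 and 30.4 CPM of Wnt7b, and non-dividing ones (2552 and 2467, with 0) had 23.0 and 23.3 CPM. The difference was 0.32 ± 0.09 on the log2 scale (edgeR adjusted p = 0.00464), and that of Sfrp1 was 0.15 ± 0.05 (edgeR adjusted p = 0.0212). The other 7 members did not pass, with log2 fold changes between -0.22 and 0.09, against 17.1% of 14043 genes called higher, 20.1% lower and 37.2% in either direction. The Wnt7b and Sfrp1 calls were both lost with DESeq2 (adjusted p = 0.133 and 0.195) and without the library block (edgeR adjusted p = 0.0621 and 0.453), and the Sfrp1 call also with no filter on low counts (0.211) and with a marker minimum of 3 UMIs (0.101). The members' median was -0.01 and that of all genes -0.06.

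Among the other pathway genes, 7 were higher and 12 lower of 68 in dividing Pdgfra cells, with a median of -0.08. Wnt5b was higher by 1.42 ± 0.27 (edgeR adjusted p = 8.23e-05) and Lgr5 by 1.38 ± 0.38 (edgeR adjusted p = 0.0047).

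The genes most like each member across the 10 sums of group and library were found by Pearson's r of log2(CPM + 1), among 7057 genes with a mean of at least 20 CPM. The sums share libraries and cell groups, so r only describes how alike the log2 levels of a pair of genes were across the groups. The Enpp6 sums, from 10 and 29 cells, count as much in r as the others. Lef1 was most like Ttyh3 (r = 0.996), Gja1 (0.993), which encodes the astroglial connexin 43, and Nedd9 (0.993). Axin2 was most like Mboat2 (0.995), Slc1a3 (0.991), which encodes the astroglial glutamate transporter GLAST, and Prdx6 (0.987). Tcf7l2 was most like Kazn (0.993), Lmf1 (0.992) and Atp6v0a2 (0.989), and Tcf7l1 most like Gatd3a (0.988), Pdia4 (0.984) and Tsc22d4 (0.982). Wnt7b was most like Cdh10 (0.972), Cdh4 (0.959), both cadherins, and Cdc42 (0.953), and Wnt7a most like Metap1d (0.972), Rcbtb2 (0.970) and Ntng1 (0.965). For Sfrp1 these were Flot2 (0.989), Gcc2 (0.984) and Tef (0.984), for Fzd1 Atp2b4, Fnbp1 and Plekhm2 (each 0.985), and for Fzd3 Irf2bp2 (0.983), Lnpep (0.976) and Arhgap21 (0.965).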

How the data were processed

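Single cells of 2 wild-type libraries were measured. The authors deposited 1 matrix per library of untransformed UMI counts, from Cell Ranger 6.0.2 per the file headers. Per the submitters' processing notes, mm10, R 4.1.0 and Seurat 4.1.0 were used, with no role named. The gene annotation behind the counts is not given in these sources. The files held 13858 barcodes with 97091962 UMIs and 14513 with 108903409, of which 81.0% and 75.6% were kept. Cells with markers of several groups were left out of all groups, which also removes doublets between them, and Scrublet (scanpy 1.11.5) was an alternative that marked 862 and 778 cells. Counts were summed per library and group, since cells are not replicates, and tested with edgeR 4.0.16 (R 4.3.3; quasi-likelihood test, TMM, filterByExpr, library as block, Benjamini-Hochberg over all genes, threshold 0.05). The 5 groups shared 1 fit (10 sums, 4 residual degrees of freedom), and the dividing comparison another (12 sums, 5). The library is a block because the sums of 1 library come from the same sorted cells. Marker genes that set groups were left out of counts of called genes. All members were named, and of the other pathway genes up to 4 per comparison with the largest called change of at least 2-fold. For genes with 0 UMIs the bound takes 3 counts over the group. DESeq2 1.42.0, no filter, other cell limits and leaving out each library were the alternatives. On simulated counts with 200 changed genes, the test of Aqp4 minus Pdgfra cells recovered 74% of 2-fold and 95% of 4-fold changes. For Enpp6 minus Pdgfra cells these shares were 13% and 56%, and for the dividing comparison 74% and 96%. False calls numbered 8, 3 and 7. The members and lists were chosen with earlier results of these data known.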

Additional observations from a re-analysis of the deposited data

How the results depend on the processing

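Of 423 values of the members recomputed with a test under the alternatives, 397 kept their direction and side of the threshold, 10 lost a call, 4 gained one and 12 turned sign, and 32 of the 37 calls held under every test run. All 37 had the same direction in each library. The values that turned sign were not called in either setting, and the cause was not tested. For Neurod minus Gad cells, Lef1 became -0.65 with a marker minimum of 3 UMIs, -0.15 with Scrublet doublets removed and -1.20 with dividing cells removed. Tcf7l1 became -0.14, -0.11 and -0.43 there, and -0.0588 with a mitochondrial limit of 5%. For dividing minus non-dividing Pdgfra cells, Wnt7a became -0.01 with no filter on low counts (-0.0116) and with Scrublet doublets removed (-0.0140). With a mitochondrial limit of 5%, Lef1 became 0.00101, Axin2 0.00186 and Fzd1 -0.00344.

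The dividing comparison called 5217 genes, but 2654 with DESeq2's Wald test (1576 higher, 1078 lower) and 2765 without the replicate block (1581 higher, 1184 lower), against 2398 higher and 2819 lower. The replicate block changed no other call of a member than those of Fzd3, Wnt7b and Sfrp1 given above. Counts of the other comparisons stayed within 1.5 times. Wnt7a, with 1 UMI in Enpp6 cells, passed against Pdgfra cells under 4 alternatives (edgeR adjusted p from 0.00977 to 0.0431). Leaving out a library leaves no residual degrees of freedom, so those values carry no test and give no count of called genes. Levels of Lef1 in Neurod cells (1.96 CPM) moved to 1.15 CPM with a marker minimum of 3 UMIs and to 1.11 CPM as a mean over cells, and in Gad cells the mean over cells was 2.63 CPM in place of 1.73. With 39 Enpp6 cells, depth limits the members counted there in few UMIs.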
